A study of Homo sapiens with 9 samples.

Results

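The genes described are those of MHC class I antigen presentation: the heavy chains HLA-B, HLA-C, HLA-E and HLA-F, the light chain B2M, the peptide transporter subunits TAP1 and TAP2, the loading factor TAPBP (tapasin) and the transcriptional activator NLRC5. They were taken by exact gene name from the deposited table, with names that carry a numbered suffix left aside, and 8 of the 9 were found among 57773 features. TAP2 had no row under its exact name and was not used here. Messenger RNA was sequenced from the human cell line ACHN, grown from a renal cell carcinoma, in which the fatty acid elongase gene ELOVL5 had been targeted by CRISPR/Cas9; the series concerns the part of ELOVL5 in proliferation and invasion of this cancer. KO#1 and KO#2 cells were each targeted with 1 of 2 independent guides, and sgControl cells carried a control guide, with 3 libraries per group. All 9 libraries therefore come from 1 line that received a guide. The labels do not say whether knockout cells were pools or clones, nor whether the libraries of a group came from separate cultures, so the spread behind each p-value is that among these libraries and may be technical.

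MHC class I molecules carry short peptides made inside the cell to its surface, where cytotoxic T cells and natural killer cells read them. Proteasomes cut the peptides, and the TAP transporter moves them into the endoplasmic reticulum. There tapasin with calreticulin and ERp57 helps load them onto a heavy chain that is paired with B2M. Transcription of these genes rests on a promoter module bound by RFX, CREB-type and NF-Y factors that recruit NLRC5, on interferon-driven factors such as IRF1, and on NF-kB; tumours are known for losing class I through many of these steps.

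The promoters of 5 members are printed because they show which of the letter patterns below match in each gene. Each sequence is the 250 bases before the annotated start (RefSeq, GRCh38.p14), read 5′ to 3′ on the gene's strand. Capitals mark matches on either strand to GAAA, any pair of bases, GAAA (an IRF element), ATTGG (the Y box core bound by NF-Y), TGACG (the core of X2, a CREB-type site) or GGGNNTTCC (NF-kB-like). The windows lie at chr6:31357180-31357429 on the minus strand for HLA-B, chr6:31272093-31272342 on the minus strand for HLA-C, chr15:44711267-44711516 on the plus strand for B2M, chr6:32853705-32853954 on the minus strand for the first of 2 TAP1 starts, and chr6:33314079-33314328 on the minus strand for TAPBP.
HLA-B: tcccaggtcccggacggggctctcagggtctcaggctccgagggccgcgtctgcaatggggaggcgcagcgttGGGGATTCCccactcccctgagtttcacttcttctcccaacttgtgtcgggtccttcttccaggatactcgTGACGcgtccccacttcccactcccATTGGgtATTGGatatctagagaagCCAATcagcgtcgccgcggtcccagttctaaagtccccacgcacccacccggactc
HLA-C: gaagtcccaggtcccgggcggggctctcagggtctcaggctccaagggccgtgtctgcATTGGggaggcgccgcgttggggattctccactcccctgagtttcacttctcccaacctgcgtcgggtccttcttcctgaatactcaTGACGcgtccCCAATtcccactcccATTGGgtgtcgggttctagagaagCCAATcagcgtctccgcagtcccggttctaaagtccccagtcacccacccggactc
B2M: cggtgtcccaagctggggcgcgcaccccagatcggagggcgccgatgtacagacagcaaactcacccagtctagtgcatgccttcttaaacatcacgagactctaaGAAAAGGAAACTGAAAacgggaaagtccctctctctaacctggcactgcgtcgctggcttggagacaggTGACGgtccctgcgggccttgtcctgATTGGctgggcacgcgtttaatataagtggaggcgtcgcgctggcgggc
TAP1: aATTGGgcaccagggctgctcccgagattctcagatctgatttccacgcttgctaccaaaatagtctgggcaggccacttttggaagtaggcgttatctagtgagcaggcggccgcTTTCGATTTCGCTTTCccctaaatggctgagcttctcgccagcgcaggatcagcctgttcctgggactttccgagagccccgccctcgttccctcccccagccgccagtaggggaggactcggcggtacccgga
TAPBP: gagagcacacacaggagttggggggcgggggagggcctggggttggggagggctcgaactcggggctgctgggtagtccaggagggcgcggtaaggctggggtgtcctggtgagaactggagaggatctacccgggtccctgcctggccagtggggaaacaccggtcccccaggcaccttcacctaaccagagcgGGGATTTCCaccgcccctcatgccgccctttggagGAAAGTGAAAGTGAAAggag
An entry was found for 6 members, these 5 and HLA-F. In HLA-B, HLA-C and B2M TGACG was followed on the same strand by ATTGG, at 25, 25 and 26 bases from start to start. With a spacing of 20 to 30 bases, a range chosen after the sequences were seen, 0.407% of 35116 promoter windows hold such a pair. The IRF element had 2 overlapping matches in B2M, in the first TAP1 window and in TAPBP, 1 in HLA-F, and none in HLA-B or HLA-C. At least 1 such match is held by 3.02% of all windows. The window of the second TAP1 start, not printed, had no match to any of these patterns. GGGNNTTCC matched once in HLA-B and once in TAPBP (5.78% of windows), while ATTGG alone is common (32%), as is TGACG (21.2%). The HLA-B and HLA-C windows were 89.0% identical, and HLA-B and B2M 47.3%. These matches are letters in a window, not measured binding. Fixed patterns miss variants of a site, so a window without a match may still hold one. GGGNNTTCC, for instance, does not match gggactttcc in the TAP1 window or its reverse complement ggaaagtccc in the B2M window.

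The values are the authors' quantile-normalised signal, on which every library has the same total of 8625043.6. Raw depth can therefore not be taken from the totals, and levels are compared between libraries and not between genes. ELOVL5, the targeted gene, had 805, 1345 and 1016 for KO#1, 434, 1805 and 910 for KO#2, against 1999, 2713 and 2063 for sgControl, so all 6 knockout libraries lay below the 3 control libraries. KO#2 replicate 1 stood apart. Its correlation across tested features with its own group was 0.672 and 0.737, against 0.958 to 0.978 within KO#1 and within sgControl, and 76.7% of tested features lay outside the range of the other 8 libraries there. For this reason the members' results are given with and without that library. Of the markers of renal tubule and renal carcinoma, 7 of 8 were detected (CDH6 was at 0), with summed signals of 24363 to 37688 in KO#1, 28262 to 37286 in KO#2 and 29711 to 34734 in sgControl. In each knockout 2 of the 7 passed limma's test with Benjamini-Hochberg adjustment (adjusted p under 0.05), 1 in each direction. Of all tested features 2.33% passed in KO#1 and 2.04% in KO#2. The part of these markers in the results was not tested. CDH1, the epithelial cadherin, had 319, 369 and 454 for KO#1, 371, 716 and 542 for KO#2, against 6183, 3831 and 6059 for sgControl, and fell, with log2 fold changes of −3.79 and −3.32 (adjusted p = 0.000335 and 0.000765). EPCAM, an epithelial adhesion molecule, had 43.4, 58.8 and 69.2 for KO#1, 93.7, 329 and 349 for KO#2, against 4.89, 4.89 and 5 for sgControl, and rose by 3.27 and 5.23 (adjusted p = 0.00999 and 0.000765). Of 10 leukocyte markers 5, PTPRC and CD3E among them, were at 0 in all libraries, and the sums were 30.3 to 59.6 in KO#1, 23.1 to 230 in KO#2 and 14.6 to 39.0 in sgControl. The highest of these sums was again that of KO#2 replicate 1. The part of any other cell type in the results was not tested, and in such bulk RNA fewer cells with a transcript and less transcript per cell cannot be told apart.

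The class I genes were present in all groups, and none of the 8 passed the test in either knockout. Test values are from limma on log2(signal + 1), a scale that understates changes of low values, with Benjamini-Hochberg adjustment over 12985 tested features and a threshold of 0.05. The number of members called was 0 of 8 for KO#1 against sgControl, where 2.33% of all tested features were called, and 0 of 8 for KO#2 against sgControl, where 2.04% were. It was also 0 of 8 for the mean of both knockouts against sgControl (3.1% of features called) and for KO#2 against KO#1 (0% called). At an unadjusted p under 0.05 it was 0 in each, against 11.3%, 13.5%, 14.2% and 4.07% of features. Without KO#2 replicate 1 it was still 0 of 8 in all 4 comparisons, against 12.3%, 8.08%, 14.7% and 0.101% of features called.

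**Figure D1:**
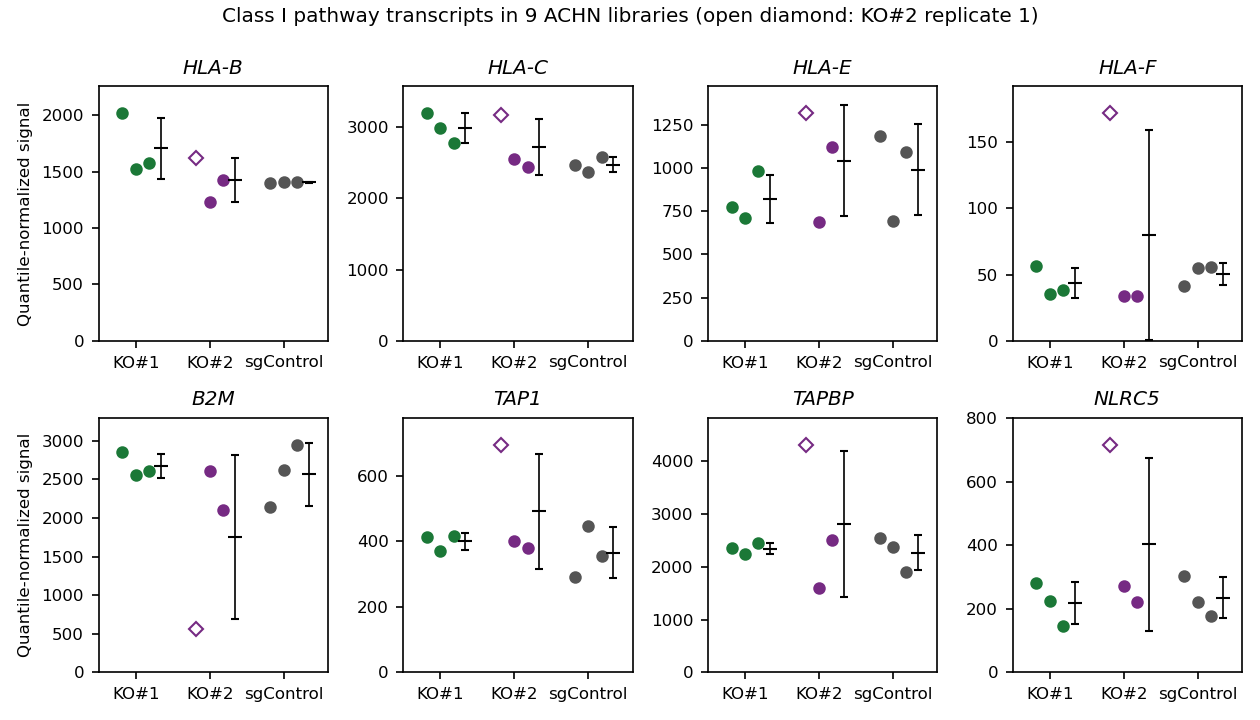
Quantile-normalised signal (y axis, from 0) of the 8 class I genes in each library of KO#1, KO#2 and sgControl; points are libraries, horizontal ticks with bars are the mean and SD of the 3 libraries, and the open diamond is KO#2 replicate 1. HLA-B and HLA-C were higher in the 3 KO#1 libraries than in the 3 sgControl libraries, and KO#2 replicate 1 lay far above the other libraries for HLA-F and NLRC5 and far below them for B2M.

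HLA-B and HLA-C are classical heavy chains, which show peptides to cytotoxic T cells and are ligands of killer cell receptors. HLA-B had signals of 2016, 1522 and 1580 for KO#1, 1623, 1231 and 1424 for KO#2, against 1399, 1405 and 1408 for sgControl. HLA-C had 3190, 2980 and 2777 for KO#1, 3163, 2550 and 2434 for KO#2, against 2461, 2370 and 2581 for sgControl. For both genes all KO#1 libraries lay above all sgControl libraries, and the KO#2 libraries overlapped sgControl, with 1 HLA-B value below it and 2 HLA-C values within its range. Groups that did not overlap were seen for these 2 of 8 members in KO#1, where 34.1% of tested features did not overlap, and for 0 of 8 in KO#2, where 18% did not. With the 6 knockout libraries set together against sgControl, 0 of 8 members and 12.5% of tested features did not overlap. The HLA-B difference of KO#1 from sgControl was 0.27 on the log2 scale (SE 0.264, 95% interval −0.32 to 0.85, adjusted p = 0.901), and that of HLA-C was 0.27 (SE 0.253, −0.29 to 0.83, adjusted p = 0.884). For KO#2 they were 0.01 (−0.57 to 0.60, adjusted p = 0.984) and 0.13 (−0.43 to 0.69, adjusted p = 0.827). Without KO#2 replicate 1 the intervals in KO#1 narrowed to −0.11 to 0.65 for HLA-B and −0.07 to 0.61 for HLA-C (adjusted p = 0.359 and 0.297), so a rise above 0.65 lay outside both.

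Parts of these transcripts are shared with other genes at the length of the reads. Of the 36-base words of the HLA-C transcript (GENCODE 29), 14.9% also occur in transcripts of other genes. For HLA-B the share was 10.1%, with HLA-C first at 7.08%. HLA-B and HLA-C were the pair of members whose log2 signals went together most closely over the 8 libraries other than KO#2 replicate 1 (Pearson r = 0.80), and r was 0.79 over all 9. How reads shared between the genes were assigned is not given in the sources used here, and its part in this likeness was not tested.

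HLA-E presents leader peptides of other class I chains to the NKG2A receptor, and HLA-F is a nonclassical chain with low surface expression in most cells. HLA-E had signals of 774, 712 and 980 for KO#1, 1316, 688 and 1123 for KO#2, against 1184, 694 and 1093 for sgControl. Each group held low values of 688 to 712 beside values of 980 or more, so the groups overlapped throughout. The log2 difference was −0.24 in KO#1 (SE 0.347, adjusted p = 0.971) and 0.06 in KO#2 (adjusted p = 0.947), the second of which was −0.13 without KO#2 replicate 1. HLA-F had signals of 56.8, 35.6 and 38.6 for KO#1, 172, 34 and 34 for KO#2, against 41.2, 55.3 and 55.6 for sgControl. Its KO#2 libraries thus held the highest and the lowest values of the 9. The log2 difference was −0.23 in KO#1 (SE 0.606, adjusted p = 1.00) and 0.22 in KO#2 (adjusted p = 0.883), and in KO#2 it was −0.55 without replicate 1 (95% interval −1.27 to 0.17, adjusted p = 0.352).

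The HLA-F value in KO#2 replicate 1 rested on few reads, as read back from the order of the table. Where quantile normalisation leaves features with equal reads in table order, low read numbers can be read back, by a method devised after values had been seen. On simulated libraries numbers under 100 came back exact. Their ties were set in table order, so this checked the counting and could not test that assumption. In the deposited values ordered runs first fell under 10 features at read number 101 to 245, above the HLA-F numbers. Read back in this way, HLA-F had 67, 41 and 58 reads for KO#1, 29, 26 and 44 for KO#2, against 33, 74 and 48 for sgControl. One read was worth 5.92 signal units at HLA-F in KO#2 replicate 1, and 0.665 to 1.31 in the other libraries. The library with the highest HLA-F signal therefore had the second lowest HLA-F read number of the 9. By the same read-back, features with at least 10 reads numbered 10257 in KO#2 replicate 1 and 12421 to 13254 in the others. Features with at least 1 read numbered 14658 there and 16085 to 17421 in the others. Total reads were not read back.

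B2M is the light chain shared by all class I molecules, and its loss keeps them from the cell surface. Its signals were 2851, 2558 and 2610 for KO#1, 558, 2606 and 2097 for KO#2, against 2135, 2617 and 2946 for sgControl. The value of 558 stood alone below the other 8, which were 2097 or more. The log2 difference was 0.07 in KO#1 (SE 0.499, adjusted p = 1.00) and −0.81 in KO#2 (95% interval −1.92 to 0.30, adjusted p = 0.514). Without KO#2 replicate 1 it was −0.12 in KO#2, with an interval of −0.57 to 0.33 (adjusted p = 0.775). Summed over the 4 heavy chains, the log2 ratio of heavy chain to B2M signal within a library was 1.05 ± 0.02 in KO#1 (SD, n = 3). It was 3.49, 0.79 and 1.26 in KO#2 replicates 1, 2 and 3, against 0.95 ± 0.26 in sgControl (SD, n = 3). Outside KO#2 replicate 1 this ratio, set on signals per gene and not per length, covered 0.79 to 1.26, so the balance of heavy and light chain transcripts stayed within a narrow band in 8 of the 9 libraries.

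TAP1 forms the peptide transporter with TAP2, and tapasin, the product of TAPBP, bridges that transporter to class I molecules awaiting peptide. TAP1 had signals of 414, 371 and 415 for KO#1, 695, 400 and 381 for KO#2, against 292, 447 and 355 for sgControl. For TAP1 the log2 difference was 0.15 in KO#1 (SE 0.332, 95% interval −0.58 to 0.89, adjusted p = 1.00). In KO#2 it was 0.40 (−0.34 to 1.13, adjusted p = 0.617), and 0.12 without replicate 1 (−0.38 to 0.61). All KO#1 values, and the KO#2 values other than that of replicate 1, lay within the range of sgControl. TAPBP had 2357, 2240 and 2441 for KO#1, 4310, 1596 and 2501 for KO#2, against 2538, 2366 and 1904 for sgControl. Its KO#2 libraries again held both the highest and the lowest value. For TAPBP the log2 difference was 0.06 in KO#1 (SE 0.359, adjusted p = 1.00), 0.20 in KO#2 (adjusted p = 0.813) and −0.17 in KO#2 without replicate 1.

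NLRC5 is the activator that assembles on the promoter module of class I genes. Its signals were 281, 226 and 148 for KO#1, 717, 273 and 221 for KO#2, against 305, 223 and 178 for sgControl. Apart from the 717 of KO#2 replicate 1, the groups covered nearly the same span. NLRC5 differed by −0.12 on the log2 scale in KO#1 (SE 0.474, 95% interval −1.17 to 0.93, adjusted p = 1.00) and 0.61 in KO#2 (−0.44 to 1.66, adjusted p = 0.592), and it was 0.10 in KO#2 without replicate 1 (−0.62 to 0.82).

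The 2 guides were also set against each other. The log2 difference of KO#2 from KO#1 ran from −0.88 for B2M to 0.73 for NLRC5 over the 8 members with all libraries, and from −0.35 for HLA-B to 0.22 for NLRC5 without KO#2 replicate 1. The adjusted p values ran from 0.748 to 0.883 with it and from 0.803 to 0.989 without it. Both guides share the sgControl libraries as their reference, so the signs of their differences from it are not independent of each other.

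A p above the threshold does not show that levels were equal, and the intervals give what these data allow. With all libraries, the 95% interval lay inside −1 to 1 on the log2 scale, a doubling or halving, for 4 of 8 members in KO#1 and 4 of 8 in KO#2, against 15.6% and 13.2% of all tested features. Without KO#2 replicate 1 it did so for 8 of 8 in KO#1 and 7 of 8 in KO#2, HLA-F being the exception, against 51% and 43.9% of all features. Signal level was not matched when these shares of members and of all features were compared. The median log2 difference of the members was 0.06 in KO#1 (0.03 over all tested features) and 0.16 in KO#2 (−0.01 over all), and −0.10 in KO#2 without replicate 1 (0.03 over all). Over the 8 other libraries, knockout and control together, the coefficient of variation was 10.9% for HLA-C, 11.8% for B2M, 12.3% for TAP1, 14.6% for TAPBP, 15.5% for HLA-B, 22.9% for NLRC5 and 23.3% for HLA-E and for HLA-F. All 8 were below the median of 26.9% over tested features, a comparison in which signal level was not matched.

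**Figure D2:**
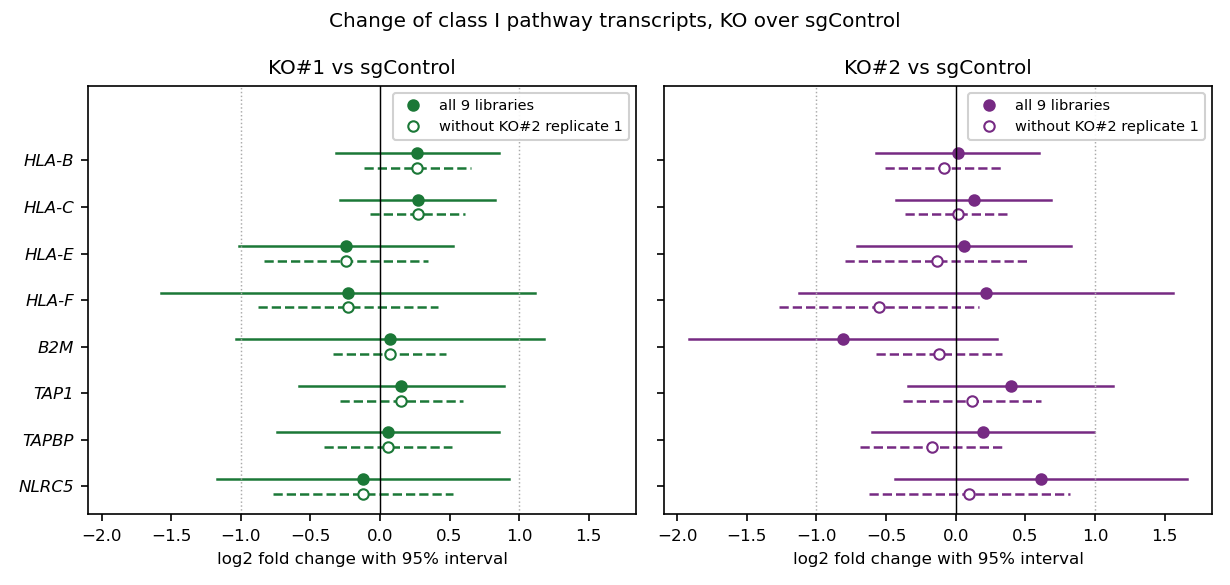
Log2 fold change from sgControl (x axis) with its 95% interval for each class I gene in KO#1 and KO#2, with all 9 libraries and without KO#2 replicate 1. Every interval spans 0, and the widest are those of HLA-F, B2M and NLRC5 with all libraries.

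In KO#2 replicate 1, B2M lay below the median of the other 8 libraries and the other 7 members lay above it. Of the 8 members, 5 were above the range of the other libraries there (HLA-E, HLA-F, TAP1, TAPBP and NLRC5), B2M was below it, and HLA-B and HLA-C were inside. Being outside that range, as 6 of the 8 were, was also the case for 76.7% of all tested features. B2M is also the one member with a low GC content, 39.4% of its longest coding transcript in GENCODE 29, against 54.8% to 60% for the other 7. Across 11495 tested genes with a known GC content (88.5% of those tested), the deviation of a library from the median of the other 8 correlated with GC content at a Spearman rho of 0.838 in KO#2 replicate 1, of −0.485 in KO#2 replicate 2, and of −0.251 to 0.231 in the remaining 7. This is a correlation across genes of 1 library, and genes are not independent replicates. The genes were put into 5 bins of equal size by GC content. In the lowest bin, up to 41.2%, the median log2 deviation of KO#2 replicate 1 was −1.96, with 90% of genes between −4.17 and −0.28, and B2M had −2.22. In bin 4, from 52.4% to 58.8%, the median was 1.05 (−0.40 to 2.45), and HLA-E had 0.60, TAP1 0.83, TAPBP 0.87, NLRC5 1.67 and HLA-F 2.08. In the highest bin the median was 1.6 (0.56 to 2.92), and HLA-B with 0.20 and HLA-C with 0.30 lay below that span. HLA-B and HLA-C thus had the highest GC content of the members and deviated least. What made the signal of this library follow GC content was not tested.

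**Figure D3:**
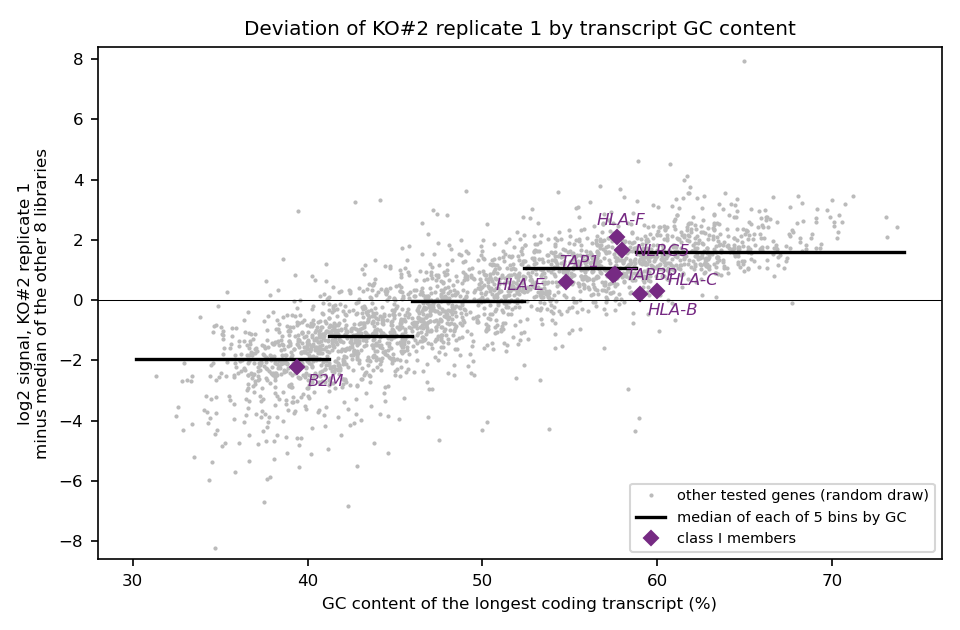
Log2 signal of KO#2 replicate 1 minus the median of the other 8 libraries (y axis) against the GC content of the longest coding transcript in percent (x axis); grey points are tested genes drawn at random, black lines the median of each of 5 equal bins by GC content, and diamonds the 8 members. B2M sits among the low-GC genes at −2.22, and the other members sit above 0 at 54.8% to 60% GC.

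With a correction that removed the trend on GC content from every library, added after the data were seen, 0 of 8 members passed in any of the 4 comparisons (8.82%, 8.3%, 11.9% and 0.087% of features called). The B2M difference in KO#2 was then −0.34 with all libraries kept (95% interval −0.75 to 0.08, adjusted p = 0.313), and that of NLRC5 was 0.29 (−0.33 to 0.92, adjusted p = 0.571). HLA-B had 0.32 in KO#1 (−0.33 to 0.96, adjusted p = 0.608) and −0.32 in KO#2 (−0.96 to 0.32, adjusted p = 0.545), the farthest apart of the members. Its difference of KO#2 from KO#1 was −0.64 (−1.28 to 0.01, adjusted p = 0.583). Uncorrected, that difference was −0.26 with all libraries and −0.35 without KO#2 replicate 1. The correction takes off the trend at a gene's GC content whether or not the gene followed it. In KO#2 replicate 1 HLA-B deviated by 0.20 against a bin median of 1.6, and the part of this in the corrected values was not tested.

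The genes around the members were described from lists of the pathway. Of 10 tested further class I-type heavy chains 0 passed in either knockout, with medians of 0.02 in KO#1 and 0.19 in KO#2, the second of which was 0.08 without KO#2 replicate 1. Without KO#2 replicate 1, HFE, a class I-like chain that governs iron uptake, fell in KO#1 (−0.75, adjusted p = 0.0404). This was 1 of the 10, where 12.3% of all tested features were called.

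Of 17 tested genes of peptide loading and trimming 0 passed in either knockout with all libraries. The chaperone calreticulin (CALR) had log2 differences of −0.02 in KO#1 and 0.04 in KO#2, calnexin (CANX) 0.31 and −0.61, and PDIA3, which encodes ERp57, 0.82 and 0.49. The aminopeptidases that trim peptides in the endoplasmic reticulum gave 0.13 and −0.37 for ERAP1 and 0.38 and −0.64 for ERAP2. Their adjusted p values ran from 0.570 to 1.00 for KO#1 and from 0.601 to 0.977 for KO#2. The KO#2 values without its replicate 1 were 0.38 for CALR, 0.42 for CANX, 0.93 for PDIA3, 0.12 for ERAP1 and −0.17 for ERAP2. When libraries were weighted by their spread (limma's array weights), PDIA3 rose in KO#1 and in KO#2 (adjusted p = 0.0160 and 0.0267). That setting called 2765 and 1293 of the 12985 tested features. Without KO#2 replicate 1 PDIA3 did not pass (adjusted p = 0.105 and 0.126). Its signals were 1780, 2222 and 1510 for KO#1, 789, 1591 and 2384 for KO#2, against 721, 1581 and 943 for sgControl, so both knockouts overlapped sgControl. LNPEP, an aminopeptidase of endosomes that serves cross-presentation, fell in KO#1 when KO#2 replicate 1 was left out (−1.08, adjusted p = 0.00874). This was 1 of the 17, where 12.3% of all tested features were called. LNPEP signals were 1083, 1487 and 1429 for KO#1, 327, 1880 and 1461 for KO#2, against 2529, 3423 and 2521 for sgControl, so all knockout libraries were below all controls.

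Of 12 tested proteasome genes 0 passed, with or without KO#2 replicate 1. The inducible catalytic subunits had log2 differences of 0.02 in KO#1 and 0.25 in KO#2 for PSMB8, 0.24 and 0.48 for PSMB9, and 0.76 and 0.89 for PSMB10 (adjusted p between 0.788 and 1.00 for KO#1, and between 0.530 and 0.734 for KO#2). With that library left out, the KO#2 values were −0.02, −0.00073 and 0.19 for these 3 genes. Of 22 tested transcription factors and chromatin regulators of class I genes 0 passed with all libraries. IRF1, which binds the IRF element, had log2 differences of 0.40 in KO#1 and 0.62 in KO#2, and RFX5, a subunit of the RFX complex, 0.05 and 0.25. In KO#2 without its replicate 1, IRF1 had 0.06 and RFX5 0.29. CIITA, the activator of class II genes, had signals of 15.3 or less in all libraries but KO#2 replicate 1, where it had 36.1. Of 9 tested interferon receptor and signalling genes 0 passed, and 4 of the 14 listed were at 0 in every library.

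Of 7 tested class II genes 1 rose and 2 fell in KO#1, and 1 fell in KO#2, where 2.33% and 2.04% of all tested features were called. HLA-DMA, a chain of the class II peptide exchanger, had 7.89, 5.78 and 10.1 for KO#1, 3.44, 5.11 and 7.56 for KO#2, against 80.9, 39.4 and 66.3 for sgControl. It fell in both knockouts, by 2.79 and 3.30 on the log2 scale (adjusted p = 0.0208 and 0.0099). CTSS, a protease that cuts the class II invariant chain, had 2.33, 3 and 4.89 for KO#1, 3, 8.89 and 2.67 for KO#2, against 20.4, 47.7 and 46.4 for sgControl. It fell in KO#1 (−3.10, adjusted p = 0.0315) and had −2.81 in KO#2 (adjusted p = 0.0562), which passed without KO#2 replicate 1 (−2.61, adjusted p = 0.0272) and without KO#2 replicate 2 (−3.26, adjusted p = 0.0297). HLA-DQB1, a class II beta chain, had 28.7, 28.4 and 39.2 for KO#1, 44.1, 14.6 and 25.4 for KO#2, against 4.89, 2.44 and 7.56 for sgControl. It rose in KO#1 (2.55, adjusted p = 0.0482) and had 2.25 in KO#2 (adjusted p = 0.0858), which passed without KO#2 replicate 1 (1.86, adjusted p = 0.0471) and without KO#2 replicate 2 (2.63, adjusted p = 0.0466). HLA-DMB, the partner chain of HLA-DMA, fell in KO#1 when KO#2 replicate 1 was left out (−1.20, adjusted p = 0.0251) and with array weights, with only the 2 groups compared and with GC correction (adjusted p = 0.00283 to 0.0345), and had 0.14 in KO#2 with all libraries. The class II alpha chain HLA-DRA was listed at 0 in all libraries. Most of these calls were lost when another library was left out. HLA-DMA reached an adjusted p of 0.155 in KO#1, lost without any 1 of the 6 KO#1 and sgControl libraries, and of 0.0836 in KO#2, lost without sgControl replicate 1 or 3. CTSS reached 0.193 and HLA-DQB1 0.243 in KO#1 in the same way, HLA-DQB1 also being lost without KO#2 replicate 3. Without KO#2 replicate 1 the adjusted p of HLA-DMA was 0.0019 in KO#1 and 0.0035 in KO#2. The lowest adjusted p on leaving out 1 library was 0.0052 for CTSS and 0.0052 for HLA-DQB1, both in KO#1.

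Of 63 tested other genes of the MHC region 1 passed in both knockouts, where 2.33% and 2.04% of all tested features were called. MRPS18B, a mitochondrial ribosomal protein gene that lies in the class I region, had 683, 589 and 740 for KO#1, 1024, 613 and 743 for KO#2, against 258, 231 and 284 for sgControl. It rose by 1.38 in KO#1 and 1.59 in KO#2 on the log2 scale (adjusted p = 0.0413 and 0.0228). Both calls were lost when any 1 of the KO#1 or sgControl libraries or KO#2 replicate 3 was left out (adjusted p up to 0.228 and 0.121). With KO#2 replicate 1 left out, the adjusted p of MRPS18B was 0.00133 in KO#1 and 0.00367 in KO#2. The median of the 63 genes was −0.03 in KO#1 and 0.32 in KO#2, the second of which was −0.09 without KO#2 replicate 1. Of the 7 tested genes that set the surface level of class I 0 passed with all libraries. Without KO#2 replicate 1, AP1M1, a clathrin adaptor subunit, fell in both knockouts (−0.80 and −0.90, adjusted p = 0.0216 and 0.0271). This was 1 of the 7, where 12.3% and 8.08% of all tested features were called.

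Among 7 tested ligands and checkpoints read by T and natural killer cells 0 passed with all libraries. Without KO#2 replicate 1, 3 rose in KO#1 and 2 in KO#2, where 12.3% and 8.08% of all tested features were called. NT5E, the ectoenzyme CD73 that makes adenosine, had 2912, 1780 and 2751 for KO#1, 677, 1324 and 3717 for KO#2, against 443, 496 and 569 for sgControl. Its log2 difference in KO#1 was 2.28 with all libraries (adjusted p = 0.0548), and without KO#2 replicate 1 it rose by 2.28 in KO#1 and 2.15 in KO#2 (adjusted p = 0.00272 and 0.0102). The KO#1 difference passed also without KO#2 replicate 3 (2.28, adjusted p = 0.0116). CD276, the checkpoint ligand B7-H3, had 1630, 2252 and 2326 for KO#1, 3741, 1627 and 2122 for KO#2, against 819, 1106 and 978 for sgControl. It rose without KO#2 replicate 1 by 1.09 in KO#1 and 0.95 in KO#2 (adjusted p = 0.00885 and 0.0357), and in KO#2 also without KO#2 replicate 2 (1.55, adjusted p = 0.0430). For both genes all 6 knockout libraries were above all controls. CD274, which encodes PD-L1, had 26.9, 21.4 and 41.2 for KO#1, 0, 3.56 and 15.3 for KO#2, against 2.33, 11.1 and 6.11 for sgControl, and in KO#1 it rose without KO#2 replicate 1 (2.17, adjusted p = 0.0475), with array weights (2.49, adjusted p = 0.00485) and with only the 2 groups compared (2.17, adjusted p = 0.0248).

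**Figure D4:**
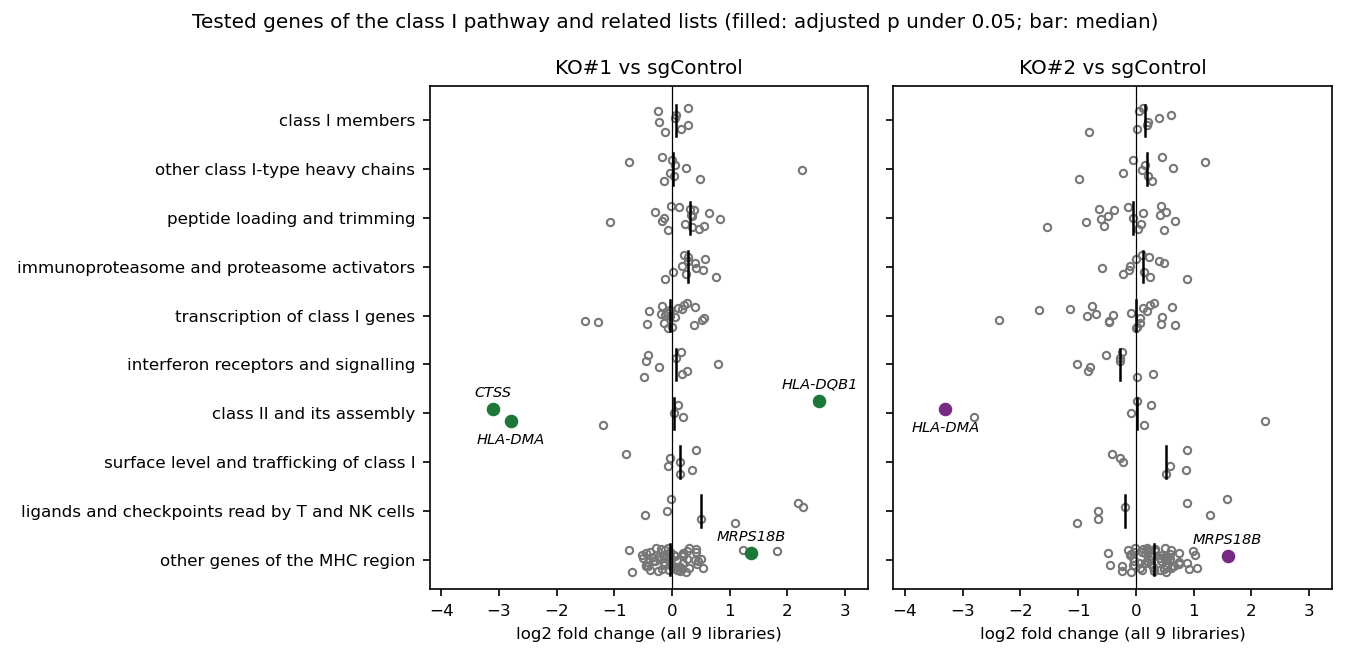
Log2 fold change from sgControl with all 9 libraries (x axis) for each tested gene of the class I members and 9 further lists (rows), in KO#1 (left) and KO#2 (right); filled points passed an adjusted p of 0.05 and bars are list medians. The members lie between −0.81 and 0.61, and the filled points are HLA-DMA, CTSS, HLA-DQB1 and MRPS18B in KO#1 and HLA-DMA and MRPS18B in KO#2.

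The features whose pattern was most like that of a member were found by Pearson r of log2 signals over the 9 libraries. For HLA-B they were THSD1, DYNLL2 and BAG3 (r = 0.970, 0.965 and 0.929), with 0.980, 0.963 and 0.925 over the 8 libraries without KO#2 replicate 1. For B2M they were CNOT2, USPL1 and INTS12 (0.995, 0.992 and 0.992), with 0.913, 0.839 and 0.834 over 8. For TAP1 they were CRYM-AS1, ZC2HC1C and STOML1 (0.971, 0.971 and 0.958), with 0.890, 0.891 and 0.885 over 8. Among the members themselves, B2M and HLA-F had r = −0.83 over 9 libraries and 0.61 over 8, and B2M and NLRC5 −0.88 over 9 and −0.31 over 8, so these relations rest on KO#2 replicate 1.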

How the data were processed

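How messenger RNA was selected is not stated; per the labels' protocols, total RNA from 9 ACHN libraries went through a directional library kit and was read as paired 36-base ends. The deposited table holds a signal per gene name that the authors made from read counts by quantile normalization, as its name states, and all libraries hold the same sorted values (0 ranks differ). The submitters' processing notes list the build mm10, although gene names are human; for the aligner and counter, the tool is not given in the sources used here.

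Signals were transformed to log2(signal + 1), and 12985 features with a mean of at least 10 were fitted with limma 3.58.1 (R 4.3.3): 1 model, 3 groups, empirical Bayes with a trend, two-sided. No count model was used. SE is moderated, SD is between libraries, n is 3 libraries per group. The fit was tested on simulated data. Replicate numbers are places in sample order. No sample column was left unused (0). GC content and shared words used the longest coding transcript of GENCODE 29; lowess with a span of 0.2 on GC content gave the correction. Promoters were aligned with Biopython 1.88.

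The members and gene lists were chosen with earlier results of these data known. Named genes are the members, every listed gene called in either knockout with or without KO#2 replicate 1 (at most 4 per list), 12 set partners (1 is not reported here), and the 3 features most like HLA-B, B2M and TAP1; HLA-DRA and the genes named beside marker sums were added after values were seen. Alternatives were pseudocounts of 10 and 0.1, no filter, a mean of at least 100, median centring, array weights, pairwise fits, no trend, each library left out, and the GC content correction.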

Additional observations from a re-analysis of the deposited data

How the results depend on the processing

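No member passed under any alternative: of 564 values of the 8 members over 4 comparisons, 0 crossed the threshold (lowest adjusted p 0.179) and 41 changed sign, 23 of them on leaving out 1 library. No paired analysis was possible because the labels give no replicate numbers. Total reads per library are unknown, and the read-back above gave fewer features with at least 10 reads in KO#2 replicate 1 than in the others. Groups of 3 libraries leave the 95% intervals above as the limit of what could be seen.

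The number of features called was 303 in KO#1, 265 in KO#2, 403 for their mean and 0 for KO#2 against KO#1. It was 105, 103 and 152 for the first 3 at a mean of at least 100, 2765, 1293, 2808 and 24 with array weights, 1014, 954, 1372 and 10 with the GC content correction, and 1883 in KO#1 and 79 in KO#2 with only the 2 groups compared. For KO#2 against KO#1 it was 4 at a pseudocount of 10 and 2 with no trend. Leaving out 1 library gave 95 to 1583 in KO#1, 95 to 1038 in KO#2, 153 to 1884 for the mean and 0 to 13 for KO#2 against KO#1, each highest without KO#2 replicate 1.

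Signs of log2 differences that changed were the following, and the cause was not tested. With array weights the values were HLA-B −0.021, HLA-C −0.012, HLA-E −0.046, HLA-F −0.46, CD274 1.02, CANX 0.51, ERAP1 0.12 and PSMB8 −0.13 in KO#2, CALR 0.14 and PSMB8 −0.0093 in KO#1, NLRC5 −0.096 for the mean of both and HLA-F −0.23, TAP1 −0.043 and TAPBP −0.041 for KO#2 against KO#1. With the GC content correction the values were HLA-B −0.32, HLA-C −0.23, HLA-E −0.22, HLA-F −0.096, TAPBP −0.12, HLA-DMB −0.056, CALR −0.21, ERAP1 0.087 and PSMB8 −0.041 in KO#2, PSMB8 −0.0027 and RFX5 −0.012 in KO#1, HLA-B −0.0027 and TAPBP −0.013 for the mean of both and TAP1 −0.097 and TAPBP −0.20 for KO#2 against KO#1. At a pseudocount of 10 the values were CIITA 0.013 in KO#2 and HLA-F 0.018 for the mean of both.

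Leaving out 1 library gave, in KO#1, −0.056 to 0.18 for B2M, −0.064 to 0.14 for TAPBP, −0.33 to 0.13 for NLRC5, −0.42 to 0.57 for CALR, −0.0030 to 0.25 for ERAP1, −0.064 to 0.083 for PSMB8 and −0.021 to 0.16 for RFX5. In KO#2 it gave −0.085 to 0.11 for HLA-B, −0.18 to 0.33 for HLA-E, −0.55 to 0.60 for HLA-F, −0.17 to 0.54 for TAPBP, −0.12 to 0.38 for HLA-DMB, −1.63 to 0.39 for CD274, −0.28 to 0.64 for CALR, −1.21 to 0.42 for CANX, −0.64 to 0.12 for ERAP1, −0.016 to 0.48 for PSMB8, −0.00073 to 0.83 for PSMB9 and −0.69 to 0.63 for CIITA. For the mean it gave −0.33 to 0.055 for HLA-E, −0.39 to 0.19 for HLA-F, −0.058 to 0.30 for TAPBP and −0.012 to 0.45 for NLRC5. For KO#2 against KO#1 it gave −0.32 to 0.83 for HLA-F, −0.035 to 0.40 for TAP1 and −0.23 to 0.49 for TAPBP.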
